A study of Mus musculus with 24 samples.

Results

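The libraries labelled NG2 came from mouse hypothalamic cells in normal glucose given mogroside V, a sweet glycoside from monk fruit, at the dose labelled 2, and they were compared with the libraries labelled NGC, the untreated cells in the same medium. The members were chosen by sample title, 3 NG2 and 3 NGC libraries, which makes 6 of the 24 libraries of the series. The other groups used here were NG1 and NG3 (normal glucose, dose labels 1 and 3, n = 3 each), HGC (high glucose, untreated, n = 3) and HG2 (high glucose, dose label 2, n = 2 after 1 file with the same values as a file of another group was left out). The series design names mogroside V at 15, 60 and 160 µM, and no label says which of these dose 2 was. All groups were of 1 cell line, an adult hypothalamic neuronal line by the design text, and no label gives a clone, a treatment time or the glucose concentrations. Whether the replicates were separate cultures is not said in the labels, and the p-values therefore cover no more than the spread between these libraries, which may be technical.

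Mogroside V is a non-nutritive sweetener whose sugar-free core is a cucurbitane, and the study asked how it acts on glucose handling in hypothalamic cells. The hypothalamus senses glucose, insulin and leptin through neurons that express feeding peptides such as Npy, Agrp and Pomc. Ribosome biogenesis takes place in the nucleolus, where RNA polymerase I makes the ribosomal RNA precursor, small nucleolar ribonucleoproteins modify it and a series of assembly factors and chaperones fold and cut it, a costly process that follows cell growth. O-mannosylation adds mannose to serine and threonine of proteins in the endoplasmic reticulum. The TMTC family (Tmtc1 to Tmtc4) does this on cadherins, and a separate pathway that starts with Pomt1 and Pomt2 does it on dystroglycan.

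Gene counts per library were 4206607 to 5210198 in NGC and 3623593 to 7773074 in NG2, with NG2 replicate 1 the deepest. Of 56941 gene IDs, 13281 passed the filter on low counts. The mitochondrial share of gene counts was 7.49 to 8.1% in NGC and 6.81 to 7.48% in NG2. Reads outside genes took 17.74 to 18.15% and 18.18 to 19.28%, so neither measure overlapped between the groups. The mitochondrial share holds no counts of mt-Nd4l, mt-Co2, mt-Co3, mt-Atp6 and mt-Atp8, which were at 0 in every NGC and NG2 library. NG2 replicate 3 also held 638 counts of Hba-a1, a haemoglobin gene of red blood cells, while the other 21 libraries of the fit held 7 to 114. The part of these measures in the results below was not tested, apart from the fits without each library. Defining neuron markers were low or absent: Rbfox3 and Elavl4 had 0 counts in all 6 libraries and Snap25 and Syt1 at most 3 counts, whereas Map2 stood at 48.3 ± 2.24 (mean ± SD) CPM (counts scaled to the library size) in NGC, and the collagen gene Col1a2 at 3296 ± 151 CPM. Gfap and Aqp4 of astrocytes, Olig1 and Olig2 of oligodendrocytes and Aif1 of microglia were at 0 as well. Other markers of each type passed the filter on low counts. These were 8 of 14 neuron markers and 7 of 13 astrocyte and tanycyte markers, with 4 of 10 for oligodendrocytes and 4 of 11 for microglia and macrophages. The cells are called hypothalamic here only by their label. In bulk RNA, fewer cells of a type and less RNA per cell cannot be told apart.

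The stretches of 250 bases before the RefSeq start of 4 genes are shown because these genes carry the main values. Tmtc1 is the gene that passed the test, and Nop58, Dkc1 and Nop56 were picked by low p from the ribosome biogenesis genes with 1 listed start. Coordinates are of GRCm38.p6, an earlier build than that of the counts: chr6:148444353-148444602 (minus strand), chr1:59684756-59685005 (plus), chrX:75095604-75095853 (plus) and chr2:130274162-130274411 (plus). Capitals mark GGGCGG or its complement CCGCCC.
Tmtc1: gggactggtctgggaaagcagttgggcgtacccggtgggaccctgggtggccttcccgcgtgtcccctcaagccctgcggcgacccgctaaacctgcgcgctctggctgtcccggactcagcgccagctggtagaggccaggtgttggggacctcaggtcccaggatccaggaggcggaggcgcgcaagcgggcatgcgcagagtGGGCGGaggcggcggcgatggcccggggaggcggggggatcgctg
Nop58: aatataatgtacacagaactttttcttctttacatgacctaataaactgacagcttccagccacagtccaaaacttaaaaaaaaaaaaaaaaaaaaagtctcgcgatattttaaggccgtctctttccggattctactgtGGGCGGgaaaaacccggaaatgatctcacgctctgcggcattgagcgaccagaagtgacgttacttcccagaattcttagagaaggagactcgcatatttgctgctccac
Dkc1: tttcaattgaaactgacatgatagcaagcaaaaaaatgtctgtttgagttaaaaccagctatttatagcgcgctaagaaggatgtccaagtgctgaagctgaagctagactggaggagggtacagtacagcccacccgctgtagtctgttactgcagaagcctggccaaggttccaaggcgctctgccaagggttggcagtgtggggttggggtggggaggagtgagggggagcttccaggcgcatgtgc
Nop56: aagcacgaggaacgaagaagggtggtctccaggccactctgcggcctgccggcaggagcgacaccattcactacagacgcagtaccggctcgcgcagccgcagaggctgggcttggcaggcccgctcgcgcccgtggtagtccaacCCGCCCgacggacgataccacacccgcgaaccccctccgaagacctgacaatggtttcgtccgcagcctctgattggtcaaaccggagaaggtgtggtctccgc
The motif GGGCGG, searched on both strands, was present once in Tmtc1, Nop58 and Nop56 and absent from Dkc1. Among the ribosome biogenesis genes 15 of the 20 with a promoter in the table held it (75.0%), beside 65.6% of the 9239 tested genes with a promoter and 32.7% of all 32851 windows. The E-box CACGTG, the letters bound by MYC among other factors, was in none of the 4 windows. It was in 1 of the 20 ribosome biogenesis genes with a promoter (5.0%), beside 10% of the tested genes and 6.0% of all windows. A gene was counted if any of its windows held the motif, so shares of genes and of windows differ in unit. A match is only a description of these letters.

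Across all tested genes NG2 differed little from NGC. With edgeR's quasi-likelihood test and Benjamini-Hochberg adjustment 1 gene of 13281 (0.00753%) passed an adjusted p of 0.05, and it was higher in NG2. No gene was called lower, while 420 genes (3.16%) had an unadjusted p under 0.05 in that direction and 438 (3.3%) in the other, 858 in all (6.46%). DESeq2 on the same counts called 35 of the 5962 genes it gave an adjusted p (0.587%), 17 higher and 18 lower. The median log2 fold change of all tested genes was 0.01, and the median standard error was 0.23, or 0.19 among the 10196 genes with at least 5 CPM. The plot of fold change against abundance shows how small the called differences were beside the scatter of low genes.

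**Figure D1:**
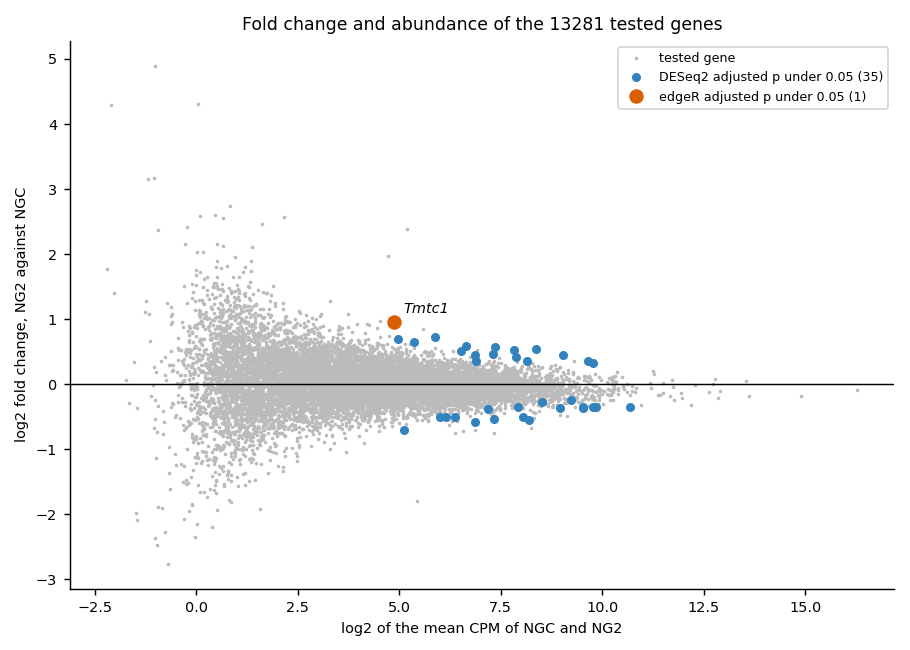
Log2 fold change of NG2 against NGC (y axis) by log2 of the mean CPM of both groups (x axis) for the 13281 tested genes, with the 35 DESeq2 calls in blue and the edgeR call in orange. Tmtc1 sits at a log2 fold change of 0.96, and the other DESeq2 calls lie closer to 0, among genes of middle to high abundance.

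Tmtc1 (ENSMUSG00000030306), a transmembrane O-mannosyltransferase of the endoplasmic reticulum with tetratricopeptide repeats, rose in NG2. Its level was 21.2, 17.7 and 20.7 CPM in the NGC libraries and 34.1, 38.0 and 45.2 CPM in the NG2 libraries. Every NG2 library was above every NGC library, a state that 7.08% of tested genes reached in this direction. The means were 19.9 ± 1.91 and 39.1 ± 5.63 CPM (± SD, n = 3 each), a 1.95-fold difference (log2 0.96 ± 0.18 SE, 95% confidence interval 0.61 to 1.32, edgeR adjusted p = 0.0355, DESeq2 adjusted p = 0.000748). The call depended on the libraries: without NG2 replicate 3 the edgeR adjusted p was 0.349 and without NGC replicate 2 it was 0.550, with log2 values of 0.85 to 1.06 over all 6 fits that left out 1 library.

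Tmtc1 in the other normal-glucose doses lay between these means, at 26.6 ± 2.46 CPM in NG1 and 29.1 ± 2.13 CPM in NG3 (n = 3 each). The differences of NG2 from NG1 (log2 0.54 ± 0.17) and from NG3 (0.41 ± 0.17) did not pass the edgeR test, with adjusted p of 0.9999 and 0.754. In high glucose the untreated cells already had 39.0 ± 6.08 CPM, and HG2 had 33.2 ± 9.33 CPM (n = 2). The dose 2 difference was thus 0.96 in normal glucose and -0.23 ± 0.20 in high glucose on the log2 scale. The difference between these (1.19 ± 0.26) had an unadjusted p of 5.61e-05 and an edgeR adjusted p of 0.369 over all genes, so it was not called.

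The other members of the family did not follow a single direction. Tmtc4 had 20.8, 26.1 and 36.4 CPM in NGC and 40.3, 31.1 and 37.5 CPM in NG2, which overlap (log2 0.40 ± 0.19). Tmtc3 was at 33.2 CPM in NGC and 29.4 CPM in NG2 (log2 -0.17 ± 0.22), and Tmtc2 was near the detection limit with 26 counts in all NGC and 15 in all NG2 libraries. In the list of 18 tested O-mannosylation genes the 1 call was Tmtc1 itself, beside 0.00753% of all tested genes called. Of the 18, 8 had positive and 10 negative fold changes, and the median was -0.09. Dag1, which encodes dystroglycan, the main acceptor of the other O-mannose pathway, was at 310 ± 42.0 CPM in NGC and 377 ± 38.0 CPM in NG2 (log2 0.29 ± 0.12).

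The 10 genes next to Tmtc1 by p did not pass the edgeR test, and each of them was called by DESeq2. With no filter on low counts edgeR called 9 of the 10, all but Cd3eap. Without NG3 replicate 3 and HGC replicate 2, a fit added after seeing the data, it called 8, all but Elobl and Nop58. Each of the 10 was called in only 2 or 3 of the 16 alternative fits, DESeq2 included. The 6 fits that left out 1 NG2 or NGC library called none of them. None of the 10 overlapped between the groups, which follows from their choice by low p in the same libraries. Igfbp4 (ENSMUSG00000017493), a secreted protein that binds insulin-like growth factors and holds them from their receptor, had 274, 262 and 268 CPM in NGC and 434, 332 and 400 CPM in NG2. The difference was 1.45-fold (log2 0.54 ± 0.11; edgeR adjusted p = 0.107, DESeq2 0.000843). Abi3bp (ENSMUSG00000035258), a protein of the extracellular matrix, had 53.2, 39.0 and 41.4 CPM in NGC and 84.4, 62.0 and 74.4 CPM in NG2 (log2 0.73 ± 0.15, edgeR adjusted p = 0.107). In both genes the 3 NG2 libraries lay above the highest control, and NG2 replicate 2 was the lowest of them.

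Serping1 (ENSMUSG00000023224), an inhibitor of complement and contact-system proteases, had 75.7, 77.2 and 84.7 CPM in NGC and 131, 120 and 107 CPM in NG2 (log2 0.59 ± 0.13, edgeR adjusted p = 0.140). Col3a1 (ENSMUSG00000026043), the chain of type III collagen, had 437, 391 and 487 CPM in NGC and 612, 581 and 610 CPM in NG2 (log2 0.45 ± 0.10, edgeR adjusted p = 0.170). Lxn (ENSMUSG00000047557), an inhibitor of carboxypeptidases, had 180, 189 and 190.5 CPM in NGC and 252, 297 and 258 CPM in NG2 (log2 0.53 ± 0.12). The NG2 libraries of Col3a1 lay closer together than its controls, and in Lxn the controls lay closer together. Elobl (ENSMUSG00000057534) had 151, 126 and 121 CPM in NGC and 179.5, 208 and 205 CPM in NG2 (log2 0.57 ± 0.13). Elobl resembles Elob, an elongin subunit, in sequence, which makes its counts uncertain.

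4 of the 10 were lower in NG2. Hmga2 (ENSMUSG00000056758), a chromatin protein of the high mobility group typical of embryonic and proliferating cells, had 299.6, 351 and 272 CPM in NGC and 214, 216 and 224 CPM in NG2 (log2 -0.50 ± 0.11, edgeR adjusted p = 0.170). Nop58 (ENSMUSG00000026020), a core protein of the box C/D small nucleolar ribonucleoproteins that guide methylation of ribosomal RNA, had 409, 350.5 and 289 CPM in NGC and 199, 280.1 and 239 CPM in NG2 (log2 -0.55 ± 0.13). Dkc1 (ENSMUSG00000031403), the pseudouridine synthase of the box H/ACA particles, had 228, 175 and 168 CPM in NGC and 111, 145 and 139.6 CPM in NG2 (log2 -0.54 ± 0.13). Cd3eap (ENSMUSG00000047649), a subunit of RNA polymerase I, had 50.2, 42.4 and 35.2 CPM in NGC and 23.7, 27.8 and 27.9 CPM in NG2 (log2 -0.70 ± 0.17). In Nop58, Dkc1 and Cd3eap, NGC replicate 1 was the highest and NG2 replicate 1 the lowest of the 6 libraries.

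**Figure D2:**
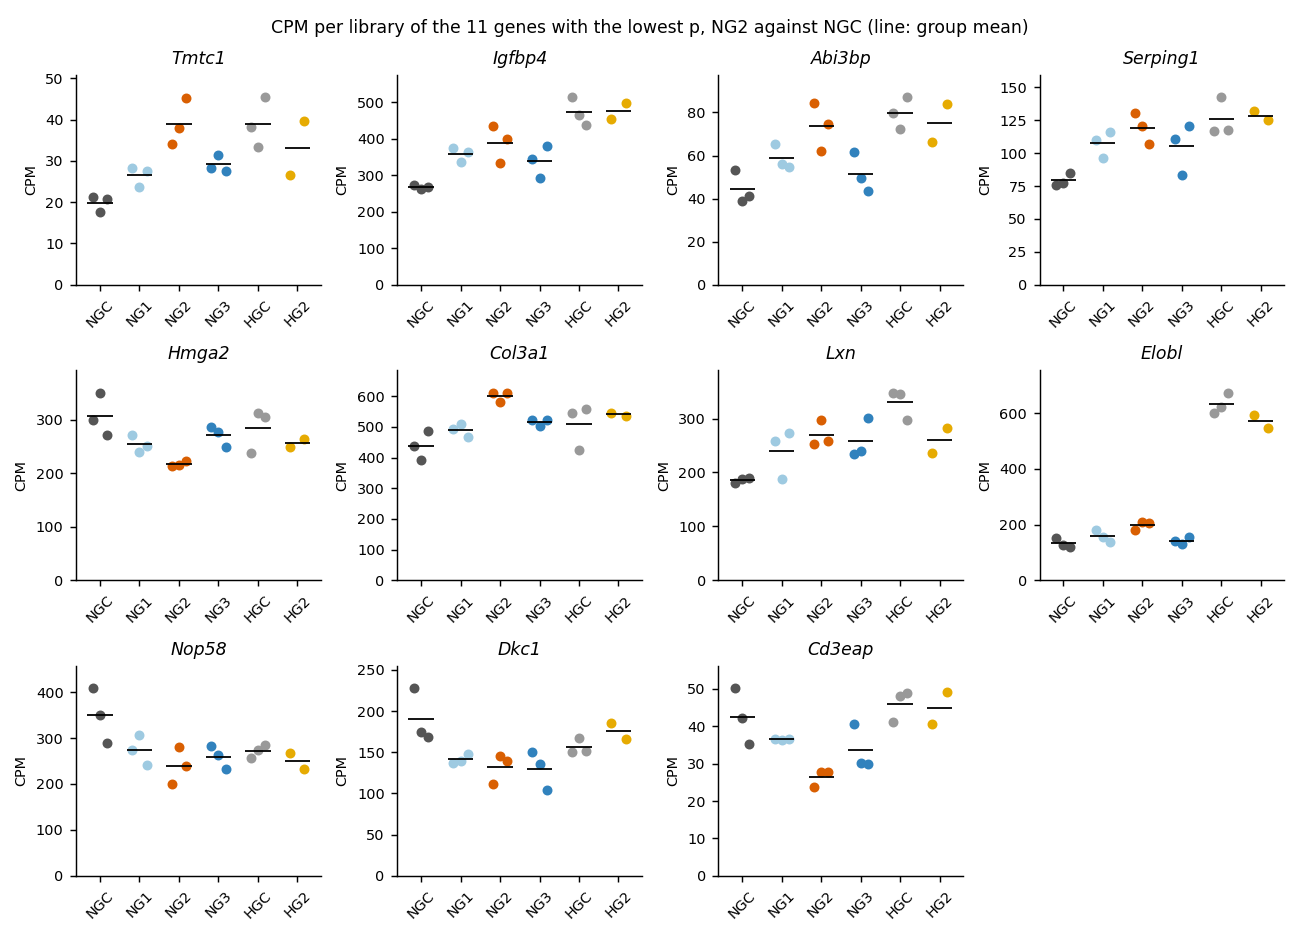
CPM per library (y axis, from 0) of the 11 genes with the lowest p in NG2 against NGC, by group (x axis), with points for libraries and a line at the group mean. The NG2 libraries lie apart from the NGC libraries in all 11 genes. The mean of the high-glucose control lies near or above the NG2 mean for Tmtc1, Igfbp4, Abi3bp and Serping1, and far above it for Elobl.

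In several of these genes the untreated high-glucose cells were at or beyond the NG2 level. Igfbp4 was at 472 CPM in HGC and 476 CPM in HG2, Abi3bp at 79.8 and 75.1 CPM, and Serping1 at 126 and 129 CPM. Elobl was at 632 CPM in HGC, far above the 197.5 CPM of NG2. In Cd3eap, by contrast, HGC was at 46.1 CPM, nearer to the NGC mean of 42.6 CPM than to the NG2 mean of 26.5 CPM, and in Dkc1 it was at 156 CPM, between the NGC mean of 190.3 CPM and the NG2 mean of 132 CPM.

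The other DESeq2 calls were named after their values were seen, and edgeR called none of them with the settings used throughout. It called Rcc1 with no filter on low counts (adjusted p = 0.0187). Without NG3 replicate 3 and HGC replicate 2, a fit added after seeing the data, it called Npr3 (0.0445), Nbl1 (0.0451) and Thra (0.0445). The fits that left out 1 NG2 or NGC library called none of these genes. Among the higher genes, Cxcl12, a chemokine that guides migrating cells, had 711, 706 and 709 CPM in NGC and 905, 903 and 913 CPM in NG2, a tight 1.28-fold difference (log2 0.36 ± 0.09, DESeq2 adjusted p = 0.000748, edgeR 0.227). Lox, the oxidase that crosslinks collagen, and Fbln5, a protein of elastic fibres, were at 769 and 134 CPM in NGC and 961.5 and 185 CPM in NG2. Npr3, the clearance receptor for natriuretic peptides, was at 202 and 269 CPM, and Mme, the membrane peptidase neprilysin, at 23.9 and 38.9 CPM. Nbl1, a secreted antagonist of bone morphogenetic proteins, was at 32.1 and 50.3 CPM, and Thra, a thyroid hormone receptor, at 75.9 and 108 CPM. Scd2, a fatty acid desaturase, was at 249 and 319 CPM, and Itm2c and Map7d1 had log2 values of 0.45 ± 0.12 and 0.36 ± 0.11.

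Among the lower DESeq2 calls, Rcc1, the exchange factor that loads Ran with GTP on chromatin, had 142, 122 and 153 CPM in NGC and 99.2, 94.1 and 85.4 CPM in NG2 (log2 -0.58 ± 0.14). Gpatch4 and Nip7, both nucleolar proteins, had log2 values of -0.50 ± 0.13 each. Pa2g4, a growth-regulated protein that binds ribosomes, was at 560.5 CPM in NGC and 437 CPM in NG2. The initiation factor genes Eif2s2 and Eif5 had log2 values of -0.35 ± 0.10 and -0.27 ± 0.09, and Nars, which charges tRNA with asparagine, -0.35 ± 0.11. Ccnd2, a D-type cyclin of the start of the cell cycle, was at 834 ± 65.0 CPM in NGC and 648 ± 41.7 CPM in NG2 (log2 -0.36 ± 0.10). Cdk11b, a kinase linked to splicing and transcription, and the unfolding ATPase Vcp had -0.37 ± 0.11 and -0.24 ± 0.09.

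Of the lists with at least 3 tested genes, ribosome biogenesis had the highest share of negative fold changes. The lists were chosen with earlier results of these data known, so the shares below describe the list and are not a test of it. Of its 25 tested genes 24 had a negative fold change in NG2 against NGC (96.0%), beside 48.9% of all tested genes, and the median was -0.32. In 13 of the 25 every NG2 library was below every NGC library, beside 6.16% of all tested genes, and 13 had an unadjusted edgeR p under 0.05 in that direction, beside 3.16%. None passed the adjusted edgeR test, and DESeq2 called 5 of them (Ncl, Nop58, Dkc1, Npm1 and Rrp1b), beside 0.587% of the 5962 genes it gave an adjusted p. With no filter on low counts edgeR called Nop58 (adjusted p = 0.0065), Dkc1 (0.0198), Nop56 (0.0463) and Ddx21 (0.0160). Without NG3 replicate 3 and HGC replicate 2, a fit added after seeing the data, it called Dkc1 (0.0167) and Ddx21 (0.0101). The 6 fits that left out 1 NG2 or NGC library called none of these genes. The median relative to the NGC mean was 0.06, 0.02 and -0.09 in the NGC libraries and -0.46, -0.31 and -0.29 in the NG2 libraries, on the scale of log2 of CPM plus 1. The median fold change was -0.36 to -0.30 in the fits that left out 1 library.

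The proteins of the small nucleolar particles differed among themselves. Nop56, the partner of Nop58 in the box C/D particle, had 129, 97.1 and 79.5 CPM in NGC and 55.5, 73.6 and 78.8 CPM in NG2 (log2 -0.57 ± 0.15), whereas Fbl, the methyltransferase of the same particle, overlapped (log2 -0.27 ± 0.20). Nolc1, a chaperone of these particles, had 139.5, 141 and 122 CPM in NGC and 90.2, 103 and 103 CPM in NG2 (log2 -0.44 ± 0.13). In Nop56 the lowest NGC library and the highest NG2 library nearly met, whereas in Nolc1 the groups lay further apart.

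Ncl, nucleolin, one of the most abundant nucleolar proteins, had 1816, 1918 and 1806 CPM in NGC and 1381, 1504 and 1480 CPM in NG2 (log2 -0.34 ± 0.09, edgeR adjusted p = 0.227, DESeq2 0.000748). Npm1, nucleophosmin, a histone and ribosome chaperone, had 817, 847 and 818 CPM in NGC and 603, 719 and 636 CPM in NG2 (log2 -0.34 ± 0.10). Ddx21, an RNA helicase of the nucleolus, had 413, 377 and 330.2 CPM in NGC and 239, 269 and 279 CPM in NG2 (log2 -0.51 ± 0.16). These abundant nucleolar genes were lower in each NG2 library than in any control, and their 95% confidence intervals reached from -0.53 to -0.16 for Ncl, from -0.55 to -0.14 for Npm1 and from -0.84 to -0.18 for Ddx21.

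Rrp1b, a factor of large subunit maturation, had 75.7, 79.4 and 69.2 CPM in NGC and 46.8, 55.7 and 57.5 CPM in NG2 (log2 -0.50 ± 0.13). Wdr12, a member of the complex that it forms with Pes1 and Bop1 for the large subunit, was at 62.5 ± 4.19 CPM in NGC and 46.0 ± 3.16 CPM in NG2 (log2 -0.45 ± 0.14), while Pes1 and Bop1 had log2 values of -0.18 ± 0.14 and -0.08 ± 0.19. Wdr43, of the small subunit processome, had log2 -0.40 ± 0.12 and its groups overlapped. The RNA polymerase I subunit genes Polr1a and Polr1b had -0.24 ± 0.14 and -0.08 ± 0.24, and Rrp12, an export factor for both subunits, was the member with a positive value (0.02 ± 0.20). In Pes1, Bop1, Polr1a, Polr1b and Rrp12 the groups overlapped.

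**Figure D3:**
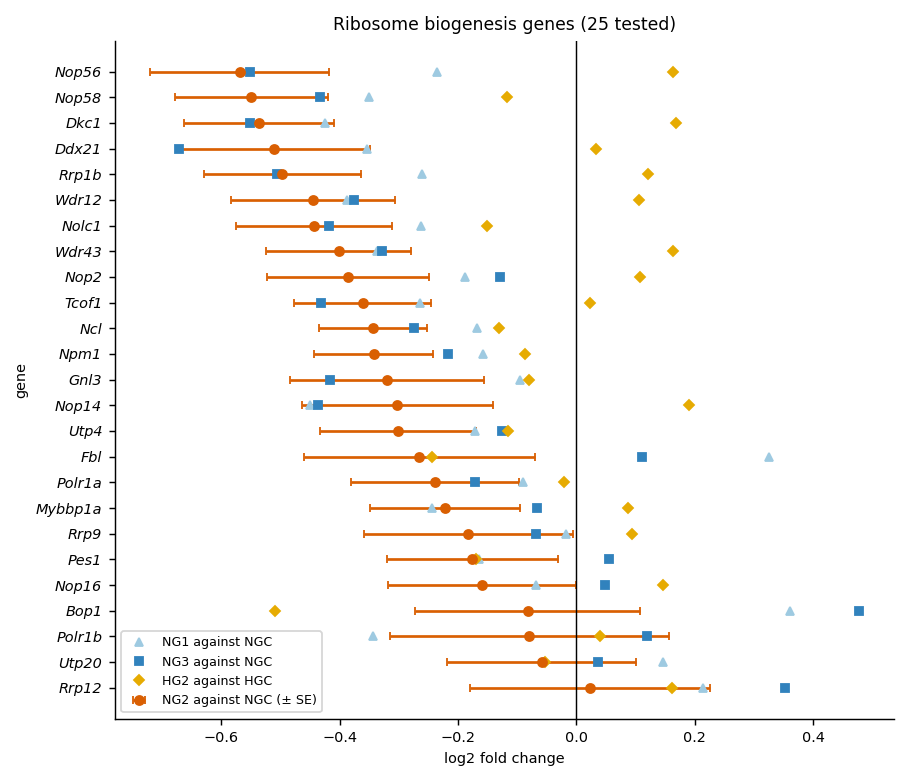
Log2 fold change (x axis) of the 25 tested ribosome biogenesis genes (y axis) for NG2 against NGC with standard errors, and for NG1 and NG3 against the same NGC libraries and HG2 against HGC as points. 24 of the 25 NG2 values lie below 0, with Nop56 lowest at -0.57 and Rrp12 highest at 0.02.

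The list had a median of -0.19 in NG1 and -0.22 in NG3 against NGC, with 21 and 18 of the 25 genes negative. These comparisons share the NGC libraries with NG2, so they give no separate support. In high glucose, where dose 2 has its own controls, the median was 0.03 and 11 of 25 were negative. The list's median of the difference between the media was -0.29, with Dkc1 at -0.71 ± 0.19 (unadjusted p = 0.000622, edgeR adjusted p = 0.459) and Nop56 at -0.73 ± 0.23 (edgeR adjusted p = 0.582). No member was called for that difference.

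The lists of cytosolic ribosomal proteins and of heat shock genes had negative medians of smaller size. The 29 cytosolic ribosomal protein genes had a median of -0.11 and 21 were negative. The median was -0.05 without NGC replicate 2, -0.07 without NG2 replicate 3 and -0.18 without NG2 replicate 2, so its size depended on single libraries. Among them was Rpl13, with 890.2, 624 and 648 CPM in NGC and 490, 623 and 591 CPM in NG2 (log2 -0.35 ± 0.14). Ribosomal protein genes have many processed pseudogenes, which makes their counts uncertain. The 18 heat shock genes had a median of -0.19, with 12 negative. In 4 every NG2 library was below the controls, beside 6.16% of all tested genes, and in 2 above them, beside 7.08%. The 2 above were Cryab, a small heat shock protein, with 180, 222 and 233 CPM in NGC and 298, 265 and 240.3 CPM in NG2 (log2 0.34 ± 0.13, edgeR adjusted p = 0.605), and the cochaperone Bag3 (log2 0.16 ± 0.15). Hsp90aa1, the inducible cytosolic chaperone of the HSP90 family, had 1091, 1115 and 907 CPM in NGC and 706, 933 and 800 CPM in NG2, which overlap (log2 -0.35 ± 0.10, DESeq2 adjusted p = 0.0423, edgeR 0.347). Hsp90ab1, its constitutive relative, had a log2 value of -0.33 ± 0.11, Hspa8, the constitutive HSP70, -0.32 ± 0.11, the cochaperone Chordc1 -0.32 ± 0.12 and the mitochondrial chaperonin Hspd1 -0.31 ± 0.11.

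The integrated stress response list, which holds targets of the transcription factor ATF4, was split, with 12 of 24 genes negative and a median of -0.07. Its members of amino acid supply were the ones with the lowest p. Asns, asparagine synthetase, had 67.1, 79.9 and 65.9 CPM in NGC and 47.9, 55.2 and 54.7 CPM in NG2 (log2 -0.44 ± 0.13). Slc7a1, a carrier of cationic amino acids, had log2 -0.41 ± 0.13 and Psat1, of serine synthesis, -0.31 ± 0.11. All 3 had an edgeR adjusted p above 0.05 (0.406, 0.500 and 0.554). The DNA replication and mitosis lists had medians of -0.10 and -0.06, with 22 of 29 and 15 of 24 genes negative and none called, and the list of citric acid cycle genes had -0.07, with 11 of 14 negative (-0.03 without NG2 replicate 3 and -0.11 without NG2 replicate 2).

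Matrix and lipid genes leaned the other way. Of 34 tested matrix and TGF-beta genes 23 were positive, 9 had all NG2 libraries above the controls, beside 7.08% of all tested genes, and 2 had them below, beside 6.16%. The median was 0.08 (0.12 without NGC replicate 1). DESeq2 called 2 (Col3a1 and Lox), beside 0.587% of the 5962 genes it gave an adjusted p. Postn, periostin, a matrix protein induced by TGF-beta, had 41.4, 39.2 and 43.3 CPM in NGC and 70.7, 51.1 and 53.4 CPM in NG2 (log2 0.51 ± 0.15, edgeR adjusted p = 0.336). Thbs2, a thrombospondin that binds matrix, had log2 0.39 ± 0.12. The 9 tested fibroblast and pericyte markers had a median of 0.12 with 7 positive, and their summed level was 7294 to 7740 CPM in NGC and 7915 to 8372 CPM in NG2. Of the 9, Col1a1, Col1a2 and Col3a1 are also in the matrix list. Another 2 markers, Lum and Rgs5, had at most 6 counts in a library and were not tested. The part of the markers in the matrix values was not tested.

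Of the 18 fatty acid synthesis genes 17 were positive, beside 51.1% of all tested genes, with a median of 0.17. In 3 every NG2 library was above the controls, beside 7.08% of all tested genes. Scd2 had 235, 267 and 245.5 CPM in NGC and 362, 297 and 297 CPM in NG2 (log2 0.36 ± 0.11, DESeq2 adjusted p = 0.0486, edgeR 0.394). Fads1, a desaturase of polyunsaturated fatty acids, had log2 0.33 ± 0.12. In the sterol synthesis list 19 of 24 were positive with a median of 0.08, among them Fdps, farnesyl diphosphate synthase (log2 0.33 ± 0.15). Of the cholesterol efflux genes 5 of 8 were positive, with a median of 0.24 (0.14 without NGC replicate 1). Abca1, the exporter of cholesterol to apolipoproteins, had 25.5, 29.3 and 20.2 CPM in NGC and 42.5, 35.9 and 30.4 CPM in NG2 (log2 0.55 ± 0.20, edgeR adjusted p = 0.559), and Npc2, the carrier of cholesterol inside the lysosome, had log2 0.29 ± 0.10. The lysosome and autophagy list had 25 of 31 positive and a median of 0.14. No gene of these lists passed the edgeR test.

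**Figure D4:**
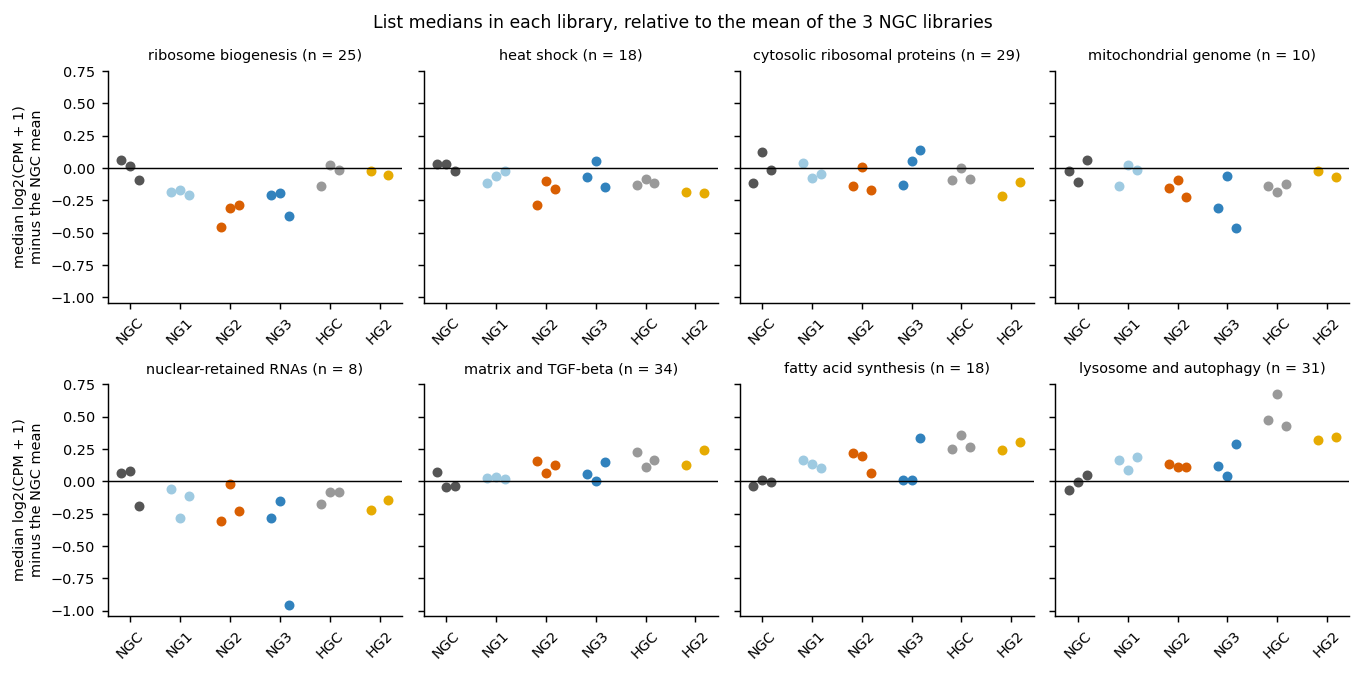
Median log2 of CPM plus 1 of 8 gene lists in each library, as a difference from the mean of the 3 NGC libraries (y axis), by group (x axis). In the ribosome biogenesis panel the 3 NG2 libraries lie at -0.46 to -0.29, below the 3 NGC libraries at -0.09 to 0.06. In the cytosolic ribosomal protein, mitochondrial genome, nuclear-retained RNA, and matrix and TGF-beta panels NG2 and NGC overlap.

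The fatty acid synthesis list had medians of 0.10 in NG1 and 0.12 in NG3 against the same controls, and -0.08 for HG2 against HGC. The lysosome list had 0.10, 0.12 and -0.07. In both lists HG2 thus had the opposite sign, with 11 of 18 and 19 of 31 genes negative. The medians of the difference between the media were 0.20 and 0.17, and no member was called.

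Genes that sense energy and glucose showed no call. Sesn1, a sestrin that activates AMPK and restrains mTOR and is induced by p53 and FOXO factors, had 9.03, 7.26 and 9.51 CPM in NGC and 17.6, 21.0 and 16.1 CPM in NG2, a 2.11-fold difference with no overlap (log2 1.08 ± 0.28, edgeR adjusted p = 0.222). Sesn3 had log2 0.37 ± 0.13, while Prkaa1, a catalytic subunit of AMPK, had -0.18 ± 0.14. The 16 AMPK and sirtuin genes had a median of -0.01. Bbc3, which encodes the p53 target PUMA, was at 27.9 ± 4.89 CPM in NGC and 42.5 ± 8.89 CPM in NG2 (log2 0.62 ± 0.18, edgeR adjusted p = 0.336).

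Txnip, which glucose induces through ChREBP and MondoA, had 88.5, 119 and 168 CPM in NGC and 198, 120 and 115 CPM in NG2, so the groups overlapped (log2 0.22 ± 0.22, 95% confidence interval -0.23 to 0.67). Slc2a1, the GLUT1 glucose transporter, was at 33.3 ± 7.45 and 35.2 ± 6.53 CPM (interval -0.28 to 0.42). The 21 glycolysis genes had a median of -0.02 and the 6 carbohydrate response genes 0.09. Of the insulin, IGF and leptin list 16 of 27 were positive with a median of 0.07, and DESeq2 called Igfbp4. Socs3, which dampens leptin and insulin signals, had log2 0.35 ± 0.14, Igf1r 0.07 ± 0.13 and Irs2 -0.03 ± 0.23. The antioxidant list had a median of -0.04, with Nqo1 at 0.18 ± 0.18 and Hmox1 at -0.01 ± 0.27. Most feeding peptides and the sweet taste receptors gave next to no counts. Npy and Pomc had 1 count each in the 3 NGC libraries and 0 in NG2. Cartpt had 0 in all 6, and Tas1r3 had 3 counts in NGC and 9 in NG2. In the list of feeding peptides and receptors, Gnrh1 and Npy1r passed the filter. Their summed level was 3.1 to 6.5 CPM in NGC and 5.5 to 6.9 CPM in NG2.

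Inflammatory and immediate early genes were mixed. Ptgs2, the inducible cyclooxygenase, had 240, 200 and 165 CPM in NGC and 113, 118 and 132 CPM in NG2, with no overlap (log2 -0.74 ± 0.22, edgeR adjusted p = 0.500). Ptgs2 was called in 3 of the 16 alternative fits, all with edgeR. They used only the NGC and NG2 libraries (adjusted p = 0.0266), no filter on low counts (0.00433), or all but NG3 replicate 3 and HGC replicate 2 (0.00233). The last was added after seeing the data, and no fit that left out 1 NG2 or NGC library called Ptgs2. The NF-kB and inflammatory list as a whole had a median of 0.03, with 11 of 20 positive. Fos, a transcription factor of the first response to stimuli, had 33.2, 33.2 and 37.4 CPM in NGC and 62.5, 37.5 and 86.2 CPM in NG2 (log2 0.84 ± 0.33), whereas its partner Jun had 255, 175 and 130 CPM and 128, 131 and 142 CPM (log2 -0.49 ± 0.21). Ankrd1, a target of YAP, overlapped with a log2 value of -0.71 ± 0.23 (edgeR adjusted p = 0.554, and 0.0146 with no filter on low counts). In the Wnt and Notch list 10 of 11 were positive with a median of 0.25, which was 0.11 without NG2 replicate 3, 0.14 without NGC replicate 2 and 0.16 without NG2 replicate 1. It holds the receptor gene Notch3 at 5.52 ± 0.814 and 9.46 ± 2.16 CPM and the secreted Dkk3 at 10.9 ± 2.39 and 16.3 ± 2.53 CPM. The 16 further lists had medians of -0.15 to 0.19 and no call. Among them, endoplasmic reticulum chaperones and unfolded protein response genes had a median of -0.02, with 12 of 22 negative.

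The lists of the mitochondrial genome and of nuclear-retained RNAs also had negative medians, and in both the library medians of NG2 and NGC overlapped. The 10 tested genes of the mitochondrial genome had a median of -0.15 with 8 negative. The listed mt-Nd4l, mt-Co2, mt-Co3, mt-Atp6 and mt-Atp8 had 0 counts in every NGC and NG2 library, so the median does not cover them. Among the tested genes, mt-Co1 had 938, 1050 and 1181 CPM in NGC and 922, 921 and 729 CPM in NG2 (log2 -0.30 ± 0.11). The list named nuclear-retained RNAs had 8 tested genes, Gas5 and Snhg1 among them, and where their RNAs lay in the cell was not tested. Their median was -0.25 with 6 negative. Leaving out NGC replicate 1 gave a median of -0.12, replicate 2 gave -0.15 and replicate 3 gave -0.38. The list was led by Neat1, the scaffold of paraspeckles, at 546.5, 699 and 477 CPM in NGC and 443, 419 and 379 CPM in NG2 (log2 -0.47 ± 0.16, edgeR adjusted p = 0.554, and 0.0197 with no filter on low counts). Of the cell type markers, Vim, the intermediate filament vimentin, was at 3751 ± 275 and 3167 ± 267 CPM (log2 -0.24 ± 0.09), Tubb3 had log2 0.21 ± 0.14 and Stmn2 -0.13 ± 0.22. The 8 tested neuron markers had a median of 0.08 with 4 positive, and their summed level was 174 to 179 CPM in NGC and 190.2 to 192 CPM in NG2. The part of these shifts in the values of the other lists was not tested.

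Dose 2 was set against the other doses directly. NG2 against NG1 gave 0 calls with edgeR (0%), 403 genes with an unadjusted p under 0.05 (3.03%) and 0 calls with DESeq2. NG2 against NG3 gave 0 calls with edgeR (0%), 811 genes with an unadjusted p under 0.05 (6.11%) and 0 calls with DESeq2. Against the same controls, edgeR called 0 genes (0%) for NG1, with 648 at an unadjusted p under 0.05 (4.88%) and 0 calls by DESeq2, and 17 (0.128%) for NG3, 1 higher (0.00753%) and 16 lower (0.12%). For NG3, 1377 genes had an unadjusted p under 0.05 (10.4%) and DESeq2 called 167 of 3886 (4.3%). NG3 replicate 3 stood apart from all other libraries on the first principal components. Values of a few members, chosen for their low p in NG2, stand side by side here. The log2 fold changes in NG1, NG2 and NG3 were 0.42, 0.54 and 0.34 for Igfbp4, -0.43, -0.54 and -0.55 for Dkc1, and 0.40, 1.08 and 0.96 for Sesn1. For Hmga2 they were -0.28, -0.50 and -0.18, and for Col3a1 0.16, 0.45 and 0.23. No order of response with dose label was common to these genes.

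The difference between dose 2 in normal and in high glucose gave 0 calls with edgeR (0%), 847 genes with an unadjusted p under 0.05 (6.38%) and 0 calls with DESeq2. HG2 against HGC, which rested on 2 treated libraries, had 0 edgeR calls (0%), 710 genes with an unadjusted p under 0.05 (5.35%) and 0 DESeq2 calls. Lxn had log2 0.53 in normal and -0.34 in high glucose, a difference of 0.87 ± 0.18 (unadjusted p = 2.84e-05, edgeR adjusted p = 0.369). Abi3bp had 0.73 and -0.08, a difference of 0.81 ± 0.23 (edgeR adjusted p = 0.503). For Col3a1 the values were 0.45 and 0.09 and for Igfbp4 0.54 and 0.01, with differences of 0.37 ± 0.16 and 0.52 ± 0.17. Over all genes no difference between the media passed the adjusted test, which does not show that the media responded alike.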

How the data were processed

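The authors deposited raw counts of reads for each gene, without normalization, in 1 file per library. Per the labels' protocols, PureLink columns and DNase gave the RNA, and the VAHTS Universal V8 kit turned its polyadenylated part into libraries. Per the submitters' processing notes, the tools were STAR 2.7.5c and HTSeq 1.99.2, with FastQC 0.11.9 and DESeq2 3.16, on GRCm39. How strand was counted was not stated there. Antisense overlaps therefore cannot be separated.

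Groups were read from the sample titles. The 5 HTSeq summary lines were left out. Symbols were found for 51948 of 56941 IDs. HG2 replicate 3 and HG3 replicate 2 were identical files and both were left out, a departure from the design, which had all 24 libraries in the fit. edgeR 4.0.16 (R 4.3.3) was run on 22 libraries in 8 groups with the default filter on low counts (43660 IDs removed), TMM factors, group means and the robust quasi-likelihood F test (14 residual degrees of freedom, biological coefficient of variation 0.149). P-values were adjusted by Benjamini-Hochberg over the 13281 genes in each of 7 comparisons and called under 0.05. The standard error is the log2 fold change over the root of F. The pipeline was tested on simulated data. DESeq2 1.42.0, RLE factors, other filters, other sets of libraries, the replicate block and each library left out in turn were alternatives.

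Named genes were those called, the 10 next by p with at least 5 CPM, up to 4 per list by p, a fixed set, and others named for their values: the remaining DESeq2 calls, further ribosome biogenesis genes, Hspd1, Cryab, Bag3, Fat4, mt-Tc and other genes of the closing section. Some genes the rule takes are left out here. The members and lists were chosen with earlier results of these data known. Of 45 gene lists 42 had at least 3 tested members. Promoters came from RefSeq (GRCm38.p6), with 9239 of 13280 tested symbols matched.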

Additional observations from a re-analysis of the deposited data

How the results depend on the processing

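The direction of Tmtc1 held in all 16 alternatives and its call in 11 of them, and the 5 fits that lost it each left out 1 library. For NG2 against NGC, the number of called genes was 35 with DESeq2, 21 with no filter on low counts, 2 with only the groups of the comparison and 17 without NG3 replicate 3 and HGC replicate 2, a fit added after seeing the data, and 0 to 1 when each library was left out in turn. It was 1 with RLE factors, with a mean of at least 5 CPM and, in fits added after seeing the data, with all 24 files, with at least 20 CPM and without robust estimation. With the replicate number as a block 1 gene was called, Tmtc1, with an edgeR adjusted p of 0.0380. Same-numbered NGC and NG2 libraries had correlations of deviations of -0.16, 0.06 and -0.15. Deviations from a mean of 3 libraries are tied to each other, so these values cannot show whether same-numbered libraries were paired. NG2 against NG1 gave 1 call with only the groups of the comparison. NG2 against NG3 gave 3 with no filter, 1 without NG3 replicate 1 and 8 without NG3 replicate 2, with a range of 0 to 8 over single libraries left out. The difference between the media gave 8 with no filter and 2 with only the groups of the comparison. The median of the integrated stress response list was -0.17 at 5 CPM, -0.19 at 20 CPM and -0.13 to 0.057 without single libraries, and that of the neuron markers 0.22 and 0.24 at those minimums. Without single libraries the medians ranged from 0.063 to 0.17 for lysosome, 0.0065 to 0.086 for insulin, 0.069 to 0.13 for sterol synthesis, -0.096 to 0.013 for YAP targets, -0.059 to 0.17 for carbohydrate response and -0.10 to 0.075 for NF-kB. Of the other medians, those that moved by over 1.5 times when 1 library was left out ranged from 0.021 to 0.11 for neuron markers, -0.15 to -0.027 for O-mannosylation, -0.12 to 0.11 for immediate early genes, -0.058 to 0.062 for AMPK, -0.046 to 0.023 for glycolysis, -0.065 to -0.027 for antioxidant and -0.081 to -0.038 for mitosis genes, beside those named with their values above. Signs turned with single libraries left out for Rrp12 (-0.074 to 0.13, negative without NGC replicate 1 or NG2 replicate 3), Slc2a1 (-0.10 to 0.21, negative without NGC replicate 3 or NG2 replicate 2), Txnip (-0.085 to 0.49, negative without NG2 replicate 1), Polr1b (-0.38 to 0.11, positive without NG2 replicate 3) and Hba-a1 (-0.999 to 3.26, negative without NG2 replicate 3). The causes were not tested. Genes under 5 CPM had a median standard error of 0.63, so depth limits what can be seen in them.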

Other observations

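Some genes with larger fold changes than Tmtc1 lay outside the rule for named genes and were chosen after their values were seen. Fat4, a large protocadherin, was at 5.30 ± 2.71 CPM in NGC and 11.2 ± 3.02 CPM in NG2, with overlap (log2 1.06 ± 0.33, edgeR adjusted p = 0.406). The mitochondrial tRNA gene mt-Tc had 121, 49.1 and 30.2 CPM in NGC and 20, 12.4 and 25.4 CPM in NG2 (log2 -1.80 ± 0.53, edgeR adjusted p = 0.500), with NGC replicate 1 far above the rest. Neither was called.

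Some transcripts of blood cells were present in all libraries of the fit, although these are of a cell line. By contrast, Hbb-bt had 0 counts in 1 library, Alas2 in 5 and Ptprc in 7. Their highest counts in a library were 40, 19 and 9. Hba-a1 and Hba-a2 had counts in each of the 22 libraries, with 638 and 436 in NG2 replicate 3 and only 7 and 11 in NG2 replicate 2. Hbb-bs had 126 counts and the immunoglobulin gene Igkc had 106 in NG2 replicate 3, and NGC replicate 2 had 66 and 56, beside 1 and 8 in NGC replicate 1. The fitted log2 fold change of Hba-a1 was 2.39 ± 1.21 (edgeR adjusted p = 0.795) and rested on NG2 replicate 3. With no filter on low counts, the 21 edgeR calls for NG2 against NGC included Igha, another immunoglobulin gene. The source of the blood cell reads was not tested.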
